A study of Rattus norvegicus with 12 samples.

Results

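The genes described here are the apolipoproteins of rat liver and the protein that loads them with lipid: Apoa1, Apoa2, Apoa4, Apoa5, Apob, Apoc1, Apoc2, Apoc3, Apoe and Mttp. They were taken by exact gene name from the deposited read counts, and all 10 were found among 16558 named genes. All 10 passed the filter on low counts, as did 12355 genes in all. The study measured RNA from liver of Sprague Dawley rats in 4 groups of 3 libraries. The normal group received saline. The model group was fed a high-fat diet for 8 weeks to induce non-alcoholic fatty liver disease. The remaining groups, called arm D and arm G here after the letters of their count columns, were fed the same diet and treated with didymin, a citrus flavonoid glycoside. One arm received a low and the other a high dose, and no label says which letter is which. The 9 high-fat libraries therefore share the diet, and only arms D and G share the compound. The labels give no age or sex of the rats, no length of didymin treatment and no animal for each library.

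Apolipoproteins are the protein coat of lipoprotein particles, which carry triglyceride and cholesterol in blood. Hepatocytes build very-low-density lipoprotein around a single copy of apolipoprotein B, encoded by Apob, onto which the microsomal triglyceride transfer protein, encoded by Mttp, moves lipid in the endoplasmic reticulum. Apolipoproteins A-I and A-II form the frame of high-density lipoprotein, while the small C apolipoproteins and apolipoprotein E move between particles and control lipolysis and uptake. In fatty liver, export of triglyceride in very-low-density lipoprotein is a main way by which the organ disposes of lipid.

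Several of these genes are neighbours in the rat genome. In the RefSeq annotation of build GRCr8, Apoa1, Apoc3, Apoa4 and Apoa5 follow each other on chromosome 8 between Sik3 and Zpr1. Apoc2, Apoc4, Apoc1 and Apoe follow each other on chromosome 1 between Clptm1 and Tomm40. Apoa2 lies on chromosome 13, Apob on chromosome 6 and Mttp on chromosome 2. RefSeq promoter windows, of 250 bases before to 50 after a transcript start, matched 5 of the 10 genes: Apoa4, Apoa5, Apoc1, Apoc2 and Apoe. The 4 windows printed below belong to genes whose levels behaved differently across the libraries: Apoa4 had the widest spread, Apoa5 and Apoc2 the narrowest, and Apoc1 was high where Apoa4 was low in model. They are written 5′ to 3′ on the gene's strand, with capitals for the matches to TATAAA (the TATA box), AGGTCA (a unit to which nuclear receptors bind) and AAAGTCC (the core of the motif of HNF4A, the hepatocyte nuclear factor that drives many apolipoprotein genes). Apoa4 is at chr8:55435529-55435828 on the plus strand, Apoa5 at chr8:55457621-55457920 on the plus strand, Apoc1 at chr1:88478256-88478555 on the minus strand and Apoc2 at chr1:88462316-88462615 on the minus strand.
Apoa4: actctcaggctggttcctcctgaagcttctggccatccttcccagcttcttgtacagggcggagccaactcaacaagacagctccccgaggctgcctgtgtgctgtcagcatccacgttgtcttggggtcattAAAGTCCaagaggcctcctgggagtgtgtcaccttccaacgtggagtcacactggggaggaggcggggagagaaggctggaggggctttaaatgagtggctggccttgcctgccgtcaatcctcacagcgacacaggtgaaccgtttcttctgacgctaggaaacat
Apoa5: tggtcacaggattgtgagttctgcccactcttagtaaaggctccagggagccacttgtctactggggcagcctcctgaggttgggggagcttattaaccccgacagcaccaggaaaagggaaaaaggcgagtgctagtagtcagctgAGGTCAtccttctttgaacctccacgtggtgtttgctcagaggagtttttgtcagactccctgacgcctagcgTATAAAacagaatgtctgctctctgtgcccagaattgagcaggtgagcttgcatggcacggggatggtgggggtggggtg
Apoc1: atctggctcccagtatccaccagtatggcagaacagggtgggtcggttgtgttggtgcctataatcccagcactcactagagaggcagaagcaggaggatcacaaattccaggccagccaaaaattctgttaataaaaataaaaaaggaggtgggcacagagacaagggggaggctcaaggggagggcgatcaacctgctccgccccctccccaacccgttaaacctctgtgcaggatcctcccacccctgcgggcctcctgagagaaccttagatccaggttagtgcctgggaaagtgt
Apoc2: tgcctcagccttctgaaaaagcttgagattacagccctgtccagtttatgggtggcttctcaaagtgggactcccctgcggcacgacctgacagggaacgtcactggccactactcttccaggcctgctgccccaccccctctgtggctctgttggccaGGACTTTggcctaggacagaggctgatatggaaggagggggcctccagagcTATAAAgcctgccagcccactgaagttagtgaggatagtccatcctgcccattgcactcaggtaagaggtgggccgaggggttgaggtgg

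The Apoa4 window held AAAGTCC on the gene's strand, starting 117 bases before the transcript start. The Apoc2 window held the same letters on the opposite strand, where they read GGACTTT, and TATAAA starting 40 bases before the start. The Apoa5 window held AGGTCA 103 bases and TATAAA 30 bases before the start. The printed Apoc1 window held none of these letters, nor did its other window or the 3 windows of Apoe, and ATCAAT, a motif of the factor Onecut1, was in no window of the 5 genes. Of 33469 RefSeq windows of this length, read on both strands, 14.2% held TATAAA, 16.2% AGGTCA, 4.63% AAAGTCC and 8.06% ATCAAT. The motifs do not overlap each other in these windows, and they were chosen with the sequences in view. A match describes letters only.

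The libraries held between 12469914 and 15521648 counts, and they differed more in composition than in depth. Transcripts of the 13 listed protein-coding genes of the mitochondrial genome took 3.85% to 11.2% of the counts in the normal group, but 44.1% in model library M.6 and 61.0% in arm G library G.3. Hepatocyte markers were all 10 detected in every group. Their summed level was 179931 to 220435 counts-per-million (CPM) in normal, 88081 to 177937 in model, 167686 to 171905 in arm D and 53593 to 188472 in arm G, with M.6 and G.3 at the low end of their groups. The 11 Kupffer cell and macrophage markers summed to 568 to 767 CPM in normal, 282 to 618 in model, 558 to 1661 in arm D and 382 to 820 in arm G. For these markers too, M.6 and G.3 were the lowest of their groups, as they were for markers of sinusoidal endothelium. Blood and lymphocyte markers went the other way. Their sum was highest in M.6 among the model libraries, at 290 CPM beside 152 and 131. In arm G it was highest in G.3, at 519 CPM beside 201 and 285. The listed pancreas markers were also highest of their groups there, at 53.4 and 29.15 CPM. Cholangiocyte and stellate cell markers did not rank M.6 and G.3 alike. Of 6 enterocyte markers, which would mark the other tissue rich in Apob, Mttp and Apoa4, 4 were listed. Their sum was 1.98 to 22.7 CPM in normal and highest, at 62.7 CPM, in model library M2.1. In bulk liver, fewer hepatocytes and less RNA per hepatocyte cannot be told apart. The results below are therefore given also without M.6 and G.3.

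In what follows, the values of a gene are CPM scaled by the trimmed mean of M values (TMM). They stand in the order N.1, N.2, N.3 for normal, M.5, M.6, M2.1 for model, D.1, D.4, D.7 for arm D and G.1, G.3, G.4 for arm G. CPM is not corrected for transcript length, so levels are compared within a gene and not between genes.

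Apob, the structural protein of very-low-density lipoprotein, stood at 6804, 5115 and 5153 CPM in normal, 5014, 3225 and 6658 in model, 4471, 4508 and 4409 in arm D and 4602, 2088 and 5267 in arm G. The normal mean was the highest at 5691 ± 964 (SD, n = 3), followed by model at 4966 ± 1717, arm D at 4463 ± 49.7 and arm G at 3985 ± 1677. The arm D libraries lay closest together, and all of them were below every normal library. Mttp, its lipid-loading partner, stood at 226, 236 and 210 CPM in normal, 156, 134 and 210 in model, 159, 155 and 147 in arm D and 180, 74.0 and 166 in arm G. Of the 9 high-fat libraries, 8 were below all normal libraries, and the exception, M2.1 at 210.1 CPM, met the lowest normal library at 209.5. The group order was the same as for Apob: 224 ± 13.6 in normal, 166 ± 39.4 in model, 154 ± 6.19 in arm D and 140 ± 57.6 in arm G.

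Apoa1, the main protein of high-density lipoprotein, stood at 1104, 867 and 1084 CPM in normal, 989, 434 and 694 in model, 1125, 1001 and 755 in arm D and 963, 123 and 1400 in arm G. Arm G held both the lowest and the highest of the 12 values, and the group means from 706 ± 278 in model to 1018 ± 131 in normal (SD, n = 3) lay within that spread. Apoa2, the second protein of high-density lipoprotein, stood at 898, 1385 and 1716 CPM in normal, 2585, 1704 and 778 in model, 3091, 1827 and 1287 in arm D and 1925, 781 and 2183 in arm G. Its 4 groups overlapped, with the arm D mean the highest at 2068 ± 926 and the normal mean the lowest at 1333 ± 411.

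Apoa4, an apolipoprotein that enters triglyceride-rich particles and is induced by lipid in mouse liver, stood at 396, 416 and 319 CPM in normal, 183, 37.1 and 583 in model, 195, 188 and 342 in arm D and 351, 50.6 and 335 in arm G. The model group alone spanned 15.7-fold, and it held the lowest and the highest value of all 12 libraries. The normal libraries differed by 1.31-fold. Apoa5, which promotes lipolysis of plasma triglyceride, varied far less, at 1582, 1603 and 1916 CPM in normal, 1269, 1531 and 1133 in model, 1542, 1307 and 1552 in arm D and 1511, 821 and 1908 in arm G. All model and all arm D libraries were below all normal libraries.

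Apoc1, an inhibitor of lipoprotein uptake and lipolysis, stood at 1006, 2175 and 2929 CPM in normal, 5109, 4125 and 1863 in model, 3034, 1771 and 1708 in arm D and 2375, 2899 and 2451 in arm G. Its 2 highest values were in the model group, whose mean of 3699 ± 1664 (SD, n = 3) was the highest, but the remaining model library lay below 2 of the 3 normal ones. Apoc2, the activator of lipoprotein lipase, stood at 600, 981 and 987 CPM in normal, 1353, 1051 and 676 in model, 1359, 744 and 711 in arm D and 1014, 646 and 1255 in arm G. Its group means, from 856 ± 222 in normal to 1027 ± 339 in model, differed by less than the SD of each group. Apoc3, which inhibits lipoprotein lipase and uptake of remnants, stood at 3452, 4183 and 5589 CPM in normal, 5564, 2313 and 3190 in model, 5412, 3085 and 3202 in arm D and 3575, 1463 and 4741 in arm G. Apoe, the ligand by which remnants enter the liver, stood at 14502, 15985 and 20362 CPM in normal, 22627, 11891 and 15974 in model, 19261, 18554 and 16900 in arm D and 22999, 7061 and 23815 in arm G. Both overlapped in all 4 groups, and the Apoe means lay between 16831 ± 5419 in model and 18238 ± 1212 in arm D.

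**Figure D1:**
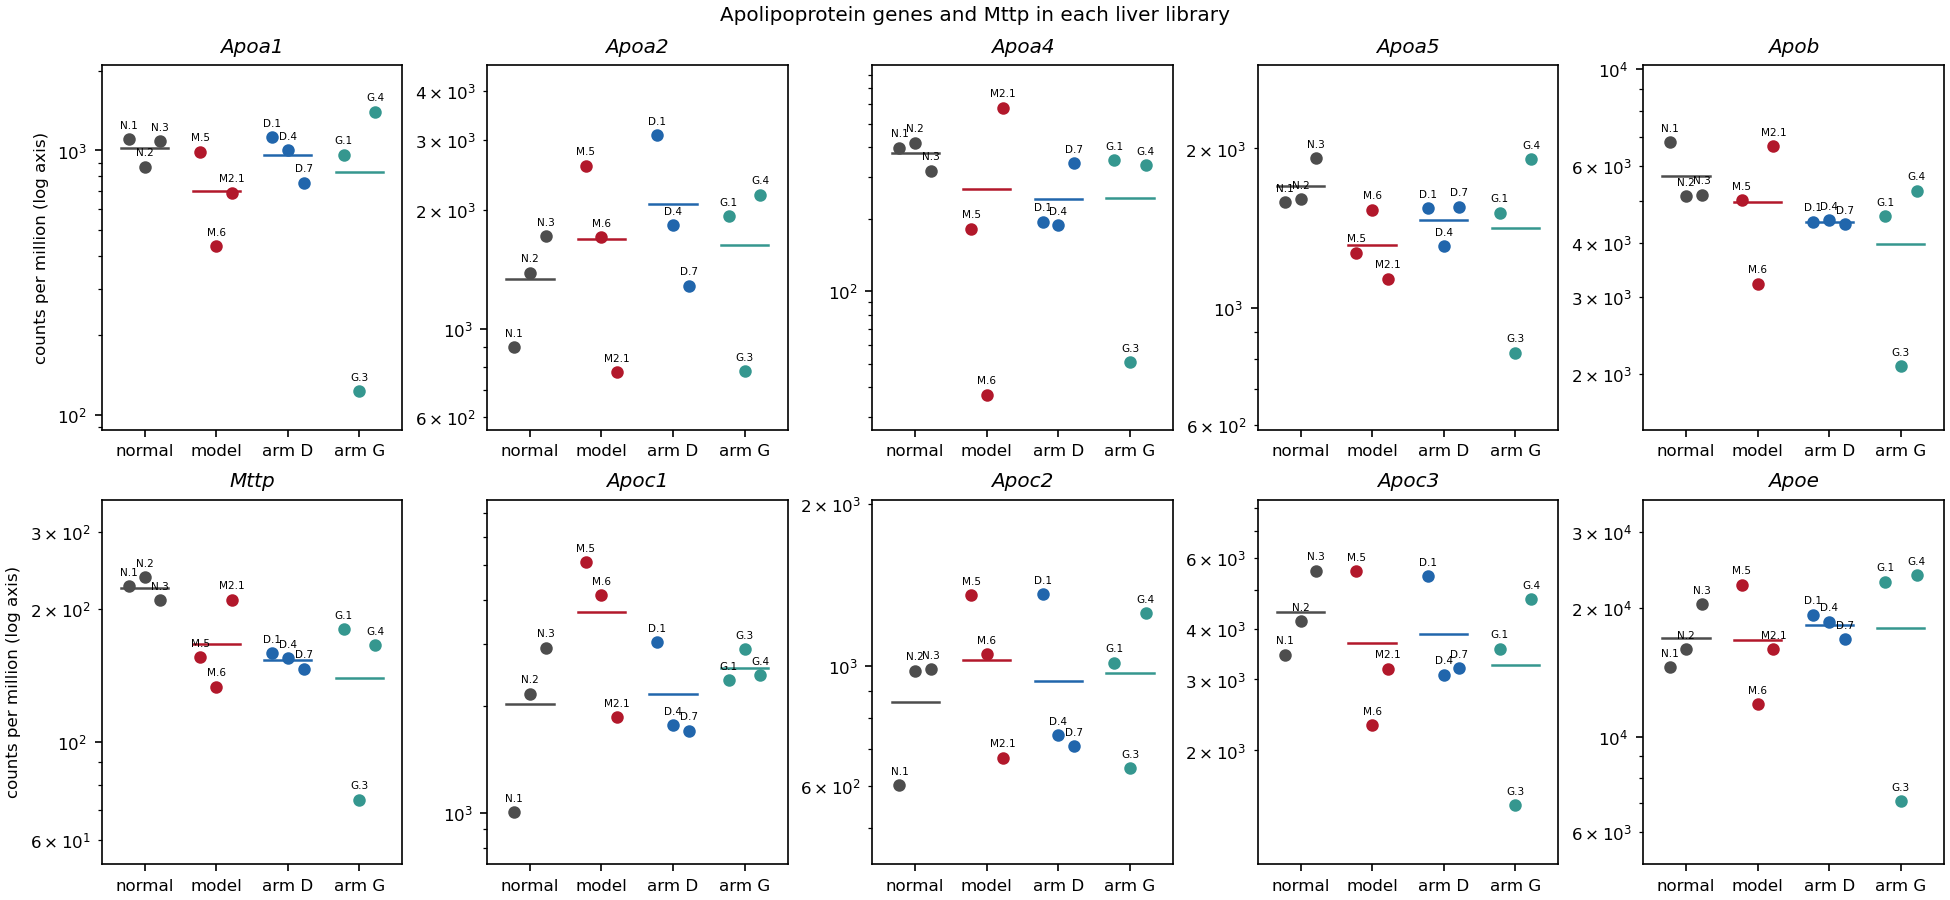
Each point is 1 library, with CPM on a log axis that has its own range for each gene, and bars are group means of 3 libraries. Library G.3 is the lowest of arm G for every gene except Apoc1, and the model libraries of Apoa4 run from 37.1 to 583 CPM.

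The comparison of model with normal asked how the high-fat diet alone moved these transcripts. None of the 10 genes, and no other gene, had an adjusted p under 0.05 by the quasi-likelihood test of edgeR, so the background of called genes was 0%. By unadjusted p under 0.05, 607 genes passed, which is 4.91% of those tested, and none of the 10 was among them. DESeq2 called 41 genes, limma-voom 0 and limma-voom with quality weights 6, none of them among the 10. Apoc1 had the largest difference, 0.86 ± 0.48 on the log2 scale (SE; 95% interval −0.17 to 1.89; adjusted p = 0.866), which is 1.82-fold higher in model. Next came Apoa1 at −0.53 ± 0.62, Apoa4 at −0.49 ± 0.80, Mttp at −0.43 ± 0.32 and Apoa5 at −0.38 ± 0.34. Apoa2 was at 0.34 ± 0.52, Apoc2 at 0.26 ± 0.39, Apoc3 at −0.26 ± 0.49, Apob at −0.20 ± 0.42 and Apoe at −0.01 ± 0.51. Of the 10 log2 differences 3 were positive, and their median was −0.23 beside 0.03 over all tested genes. Apoa5 was the only one of the 10 whose model and normal libraries did not overlap, against 10.5% of all tested genes in either direction and 5.29% that were lower.

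Without M.6 and G.3, which leaves model libraries M.5 and M2.1, the log2 difference of Apoc1 was 0.77 ± 0.51 (SE), that of Apoa5 −0.50 ± 0.22 and that of Mttp −0.29 ± 0.19, and the median of the 10 was 0.03. The difference of Apoa4 was then 0.02 ± 0.44 and that of Apob 0.04 ± 0.25, so both lost their negative sign. The authors' deposited table, from the study's own test, likewise called none of the 10 between normal and model. In the authors' deposited table Apoc1 was at −0.86 as normal minus model with an adjusted p of 0.803, and 53 genes passed 0.05. The intervals are wide: for Apoe, the gene nearest to 0, the data allow a log2 difference from −1.12 to 1.10.

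Each didymin arm was compared with the model to ask whether the compound moved the transcripts on the diet. These comparisons share the 3 model libraries with each other and with the one above. Apoc1, highest in model, had the largest difference in both: −0.77 ± 0.47 log2 (SE) in arm D (adjusted p = 0.802, edgeR) and −0.52 ± 0.47 in arm G (adjusted p = 1). In arm D the others ranged from −0.15 ± 0.42 for Apob to 0.44 ± 0.62 for Apoa1, with Apoa2 at 0.29 ± 0.52, Apoa5 at 0.16 ± 0.34 and Mttp at −0.12 ± 0.32. In arm G they ranged from −0.32 ± 0.42 for Apob to 0.23 ± 0.62 for Apoa1, with Mttp at −0.25 ± 0.32, Apoa5 at 0.11 ± 0.34 and Apoc3 at −0.18 ± 0.49. No gene passed the adjusted threshold in either arm, a background of 0% in both, while 776 genes in arm D and 287 in arm G had an unadjusted p under 0.05. DESeq2 called 14 genes in arm D and 5 in arm G, none of them among the 10, and both voom fits called 0. The authors' deposited table called 7 genes in arm D and 1 in arm G, also with none of the 10. For none of the 10 did an arm's libraries lie apart from the model libraries, where 12.6% of all tested genes did so in arm D and 4.69% in arm G. The median over the 10 was −0.02 in arm D and −0.10 in arm G, beside −0.04 and 0.00 over all tested genes. Without M.6 and G.3, Apoc1 was at −0.66 ± 0.51 in arm D and −0.52 ± 0.57 in arm G. With 95% intervals for Apoc1 of −1.80 to 0.26 in arm D and −1.55 to 0.50 in arm G, the data allow both a lower level in the arms and no difference. Between the arms, which received different doses, edgeR called no gene (423 had an unadjusted p under 0.05, and DESeq2 called 5), and none of the 10 separated arm G from arm D, where 7.43% of tested genes did.

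**Figure D2:**
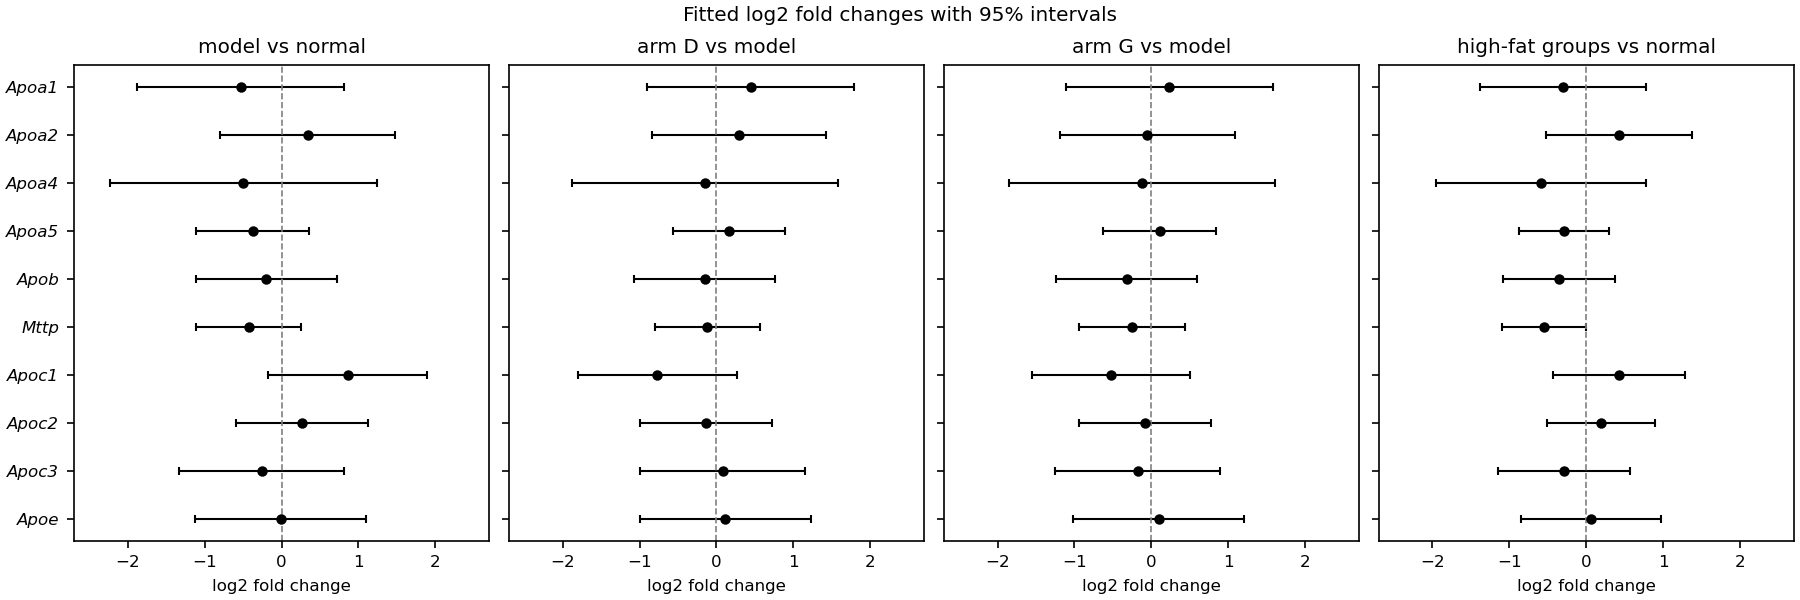
Points are fitted log2 fold changes of the 10 genes in 4 comparisons, and bars are 95% intervals; the dashed line is no difference. The intervals of all 10 genes cross 0 in the first 3 comparisons, and in the comparison of the high-fat groups with normal only that of Mttp, from −1.09 to −0.01, does not.

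The mean of the 3 high-fat groups against normal, 9 libraries against 3, gave more samples on the side of the diet, and it shares its libraries with the comparisons above. Mttp was lower by 0.55 ± 0.25 log2 (SE; 95% interval −1.09 to −0.01), which is 1.46-fold lower. Its unadjusted p of 0.0473 from edgeR became an adjusted p of 0.758 over all genes, so it did not pass, and 6.52% of all tested genes had an unadjusted p under 0.05. Mttp was past the adjusted threshold only when limma-voom weighted libraries by quality. Its adjusted p in that fit was 0.0436 in this comparison and 0.0433 in arm D against normal. The same fit called 875 and 941 of all genes in these comparisons, where edgeR called 11 and 0. Apob was at −0.35 ± 0.34, Apoa4 at −0.58 ± 0.63, Apoa1 at −0.30 ± 0.50, Apoc3 at −0.29 ± 0.40 and Apoa5 at −0.29 ± 0.27. Apoc1 was at 0.43 ± 0.40, Apoa2 at 0.42 ± 0.44, Apoc2 at 0.19 ± 0.33 and Apoe at 0.06 ± 0.42. None of the 10 passed, where 11 of all genes did (0.089%), and for none did the 9 and 3 libraries lie apart, where 1.77% of all tested genes did. The median of the 10 was −0.29 beside 0.02 over all genes, and −0.06 beside 0.00 without M.6 and G.3. Mttp was then at −0.39 ± 0.14 (adjusted p = 0.563) and Apob at −0.16 ± 0.19.

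Set against normal singly, arm D had 3 of the 10 genes, Apoa5, Apob and Mttp, below all normal libraries, where 16.8% of tested genes did not overlap in either direction and 8.17% were lower. Arm G had 1, Mttp, where 10.6% did not overlap and 5.05% were lower. The log2 difference of Mttp from normal was −0.54 ± 0.32 (SE; adjusted p = 0.912) in arm D and −0.68 ± 0.32 (adjusted p = 0.723) in arm G. It was −0.36 ± 0.19 in arm G without M.6 and G.3.

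For 9 of the 10 genes the largest SD within a group exceeded the range of the 4 group means. Mttp was the exception, with group means 84.0 CPM apart and a largest SD of 57.6. Apob and Apoc1 were near ties, with a largest SD of 1717 against a range of 1706 for Apob and 1664 against 1662 for Apoc1. From the lowest to the highest of the 12 libraries, Apoa4 spanned 15.7-fold, Apoa1 11.4-fold, Apoc1 5.08-fold, Apoa2 3.97-fold, Apoc3 3.82-fold, Apoe 3.37-fold, Apob 3.26-fold, Mttp 3.20-fold, Apoa5 2.33-fold and Apoc2 2.27-fold. Library G.3 had less than the mean log2 level of G.1 and G.4 for 9 of the 10. The log2 difference there was −3.24 for Apoa1, −2.76 for Apoa4, −1.73 for Apoe, −1.49 for Apoc3 and −1.24 for Apob. Apoc1 was the exception at 0.26. The median in G.3 was −1.56 over the hepatocyte markers, −0.91 over the Kupffer cell and macrophage markers and −0.02 over all tested genes. Library M.6, compared with M.5 and M2.1, was low for Apoa4 at −3.13 and Apoa1 at −0.93 but not for Apoa5 at 0.35 or Apoc1 at 0.42. Its hepatocyte markers had a median of −0.70, and its Kupffer cell and macrophage markers −0.86. Library M2.1, compared with M.5 and M.6, was high for Apoa4 at 2.82 and low for Apoa2 at −1.43 and Apoc1 at −1.30.

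Across the 12 libraries the genes differed in direction when set against the mitochondrial share of counts. The p-values are adjusted over 11 relations, of the 10 genes and their mean. All 12 libraries were permuted without regard to group, so differences between groups enter these relations. The mean is given as a description: its r was −0.80 and its rho −0.04, and its r was 0.65 without M.6 and G.3. Of the 10 genes Apoa4 had the strongest relation, with lower levels at higher shares (Pearson r = −0.92, permutation p = 0.00097, adjusted 0.00533; Spearman rho = −0.86, permutation p = 0.00067, adjusted 0.00737). Without M.6 and G.3, the libraries farthest from the median share, its r was −0.71. Mttp followed the same direction (r = −0.86, permutation p = 0.00078, adjusted 0.00533; rho = −0.73, permutation p = 0.00914, adjusted 0.0335), with r = −0.45 without these libraries. Apob had r = −0.89 (permutation p = 0.00165, adjusted 0.00605) and rho = −0.62 (permutation p = 0.0352, adjusted 0.0967), and r = −0.31 without them. Apoc1 went the opposite way, with rho = 0.83 (permutation p = 0.00151, adjusted 0.0083), r = 0.53 (permutation p = 0.089, adjusted 0.109) and r = 0.83 without M.6 and G.3.

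For Apoa1, Apoc3 and Apoe the relation rested on those libraries. Apoa1 had r = −0.88 (permutation p = 0.00712, adjusted 0.0194) with rho = −0.18 (permutation p = 0.572, adjusted 0.787), and r turned to 0.34 without them. Apoc3 went from r = −0.68 (permutation p = 0.0234, adjusted 0.0368; rho = −0.02, permutation p = 0.956, adjusted 0.975) to r = 0.81, and Apoe from r = −0.78 (permutation p = 0.0106, adjusted 0.0194; rho = 0.01, permutation p = 0.975, adjusted 0.975) to r = 0.54. Apoa2, Apoc2 and Apoa5 had no relation past the threshold, with r = −0.19 (permutation p = 0.584, adjusted 0.642), −0.04 (0.902, adjusted 0.902) and −0.59 (0.0557, adjusted 0.0767). Among the remaining 10 libraries Apoa2 had r = 0.74 and Apoc2 r = 0.75. The cause of the differing mitochondrial shares, and its part in these values, was not tested.

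**Figure D3:**
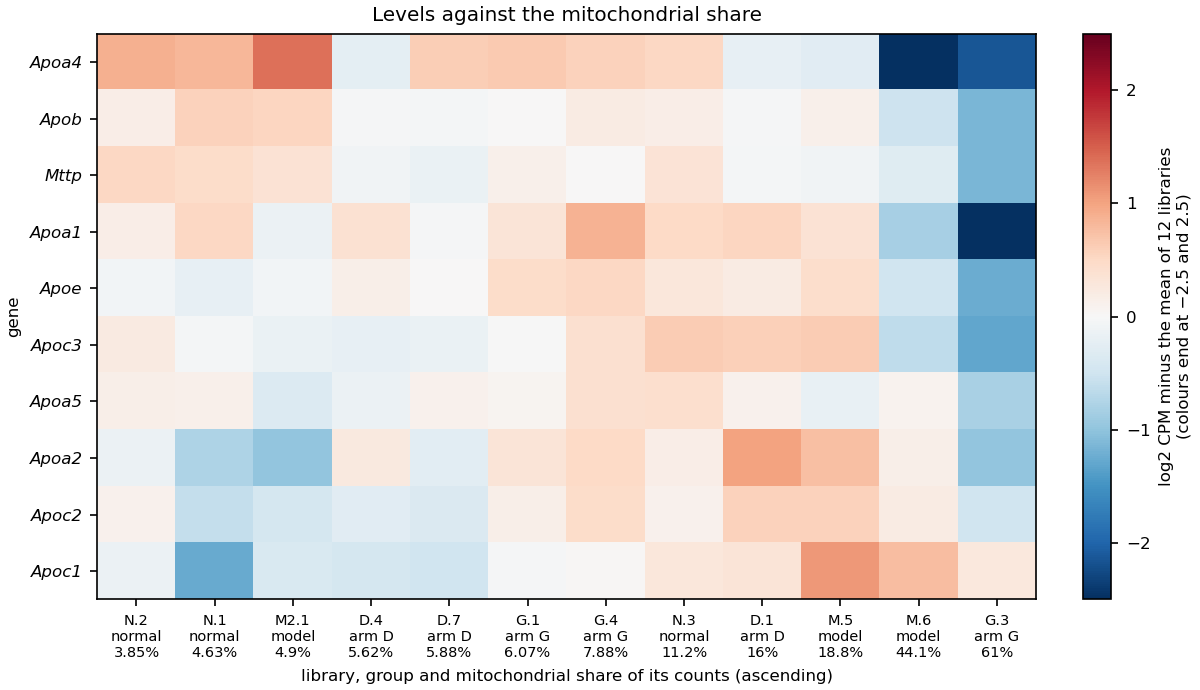
Columns are the 12 libraries by ascending mitochondrial share of counts, rows are the 10 genes, and colour is the log2 CPM of a gene minus its mean over the 12 libraries. Apoa4 is high at the left and low in M.6 and G.3, while Apoc1 is lowest in N.1 and highest in M.5 and M.6.

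The 45 pairs of genes were also correlated over the 12 libraries, as permutation tests adjusted over the pairs. Group was again not taken into account, so differences between groups enter the pairs too. Apob and Mttp, which act together in the assembly of very-low-density lipoprotein, had r = 0.92 (permutation p = 0.00026, adjusted 0.00585) and rho = 0.86 (permutation p = 0.00068, adjusted 0.0153), and r = 0.70 without M.6 and G.3. Apoa2 and Apoc2, which lie on different chromosomes, had r = 0.90 (permutation p = 0.00011, adjusted 0.00495) and rho = 0.90 (permutation p = 0.00016, adjusted 0.0072), and r = 0.89 without M.6 and G.3. Apoa4 and Mttp had r = 0.80 (permutation p = 0.00148, adjusted 0.00951), rho = 0.83 (permutation p = 0.00139, adjusted 0.0208) and r = 0.69 without the same libraries. The fourth pair past the threshold by both measures was Apoa2 and Apoe, at r = 0.68 (permutation p = 0.0102, adjusted 0.0421) and rho = 0.79 (permutation p = 0.00325, adjusted 0.0366), with r = 0.78 without them. Neighbouring genes did not all go together. In the chromosome 8 cluster Apoa1 and Apoc3 had r = 0.87 (permutation p = 0.00055, adjusted 0.00641; rho = 0.69, permutation p = 0.0155, adjusted 0.0875) and 0.55 without M.6 and G.3, while Apoa4 and Apoa5 had r = 0.42 (permutation p = 0.166, adjusted 0.226; rho = 0.30, permutation p = 0.34, adjusted 0.493) and 0.05 without them. In the chromosome 1 cluster Apoc1 and Apoc2 had r = 0.72 (permutation p = 0.00638, adjusted 0.0319; rho = 0.75, permutation p = 0.00716, adjusted 0.0573), which was 0.87 without M.6 and G.3. Apoc1 and its direct neighbour Apoe had r = 0.04 (permutation p = 0.9, adjusted 0.9; rho = 0.22, permutation p = 0.499, adjusted 0.68), which was 0.73 without M.6 and G.3.

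The genes outside all lists whose log2 levels were most like the mean of the 10 were Lman2 (r = 0.974), Cox5a (0.971), Rtn3 (0.968), Emc4 (0.968) and Mcfd2 (0.965), over 12 libraries. These are descriptions and carry no test. Lman2 and Mcfd2 encode carriers of glycoproteins between endoplasmic reticulum and Golgi, Emc4 a subunit of the membrane protein complex of the endoplasmic reticulum, Rtn3 a reticulon of the same organelle and Cox5a a subunit of cytochrome c oxidase. Without M.6 and G.3 their r ranged from 0.756 for Mcfd2 to 0.834 for Lman2.

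Other genes of the pathway were read in the comparison of the 9 high-fat libraries with normal, where edgeR called 0.089% of all tested genes. In the same comparison DESeq2 called 87 of all genes and limma-voom with quality weights 875. Of 26 transcriptional regulators of apolipoprotein genes, all tested, edgeR called 1, and it was lower. This was Onecut1, also named HNF6, a liver-enriched factor, at 48.0, 56.1 and 4.85 CPM in normal, 6.08, 8.91 and 9.27 in model, 1.92, 1.66 and 6.36 in arm D and 1.47, 2.38 and 2.49 in arm G. It fell by 3.24 ± 0.52 log2 (SE; adjusted p = 0.0486, edgeR), but normal library N.3 lay among the high-fat libraries. The call rests on single libraries: it was lost without N.1 (adjusted p = 0.323), without N.2 (0.466) and without M.6 and G.3 (0.144), and in 14 of 23 alternatives in all. Ppargc1a, the coactivator PGC-1α, had the same shape at 4.61, 3.60 and 0.820 CPM in normal against 0.180 to 1.03 in the 9 high-fat libraries, and its difference of −2.07 ± 0.47 did not pass in edgeR (adjusted p = 0.256), while it did in DESeq2 (adjusted p = 0.0198) and in limma-voom with quality weights (adjusted p = 0.0155). Srebf1, the factor of lipogenic genes, was at 1.46 ± 0.63 (adjusted p = 0.754), with M2.1 at 572 CPM and the other 11 libraries between 34.1 and 174, and Usf1 was at 0.41 ± 0.21, past the threshold only in limma-voom with quality weights (adjusted p = 0.0459).

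Of the 26 regulators 9 had a positive difference, with a median of −0.27 beside 0.02 over all tested genes. The 9 high-fat libraries all lay below normal for Srebf2, which drives cholesterol synthesis, at −0.98 ± 0.23 (adjusted p = 0.296), and for Creb3l3, which in mouse activates Apoa4, Apoa5 and Apoc2, at −0.61 ± 0.20 (adjusted p = 0.617). Both were picked after their values were seen, and neither passed in edgeR.

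Among 10 receptors and their regulators none was called by edgeR, 2 differences were positive and the median was −0.46. Mylip, an E3 ubiquitin ligase that acts on lipoprotein receptors, was at 0.45 ± 0.30 and Vldlr at 0.11 ± 0.49. Of 13 genes of plasma remodelling and lipolysis 11 were tested, with none called by edgeR, 4 positive differences and a median of −0.03. Angptl8, a feeding-induced inhibitor of lipoprotein lipase, stood at 32.0, 11.5 and 28.3 CPM in normal, 101, 93.4 and 73.4 in model, 91.0, 33.4 and 70.3 in arm D and 53.7, 69.3 and 51.9 in arm G. It was higher in all 9 high-fat libraries, by 1.54 ± 0.36 (adjusted p = 0.279), without passing in edgeR. It passed in DESeq2 (adjusted p = 0.00447) and in limma-voom with quality weights (adjusted p = 0.0134), 2 of its 23 alternatives. Abcg1 was at 1.05 ± 0.38 and passed only in limma-voom with quality weights (adjusted p = 0.0432), with Lipc (hepatic lipase) at −0.28 ± 0.29 and Lmf1 at −0.22 ± 0.18.

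Of 7 other apolipoprotein genes 6 were tested, none was called by edgeR, and all 6 differences were negative, with a median of −0.17. Apof, an inhibitor of cholesteryl ester transfer protein in human, stood at 205, 221 and 203 CPM in normal, 34.6, 223 and 59.0 in model, 26.7, 23.9 and 28.6 in arm D and 252, 68.8 and 24.4 in arm G. Its libraries fell into a high level near that of normal, which M.6 and G.1 shared, and a low one, which included all of arm D. The difference was −1.61 ± 0.56 (adjusted p = 0.672), and Apoh was at −0.40 ± 0.39. Among 19 partners in assembly, editing and secretion, of which 18 were tested and none called by edgeR, 4 differences were positive and the median was −0.20. Mia3 (TANGO1), which helps load large cargo for export from the endoplasmic reticulum, was at −0.81 ± 0.40 and Tm6sf2, which promotes lipidation of very-low-density lipoprotein, at −0.53 ± 0.29, with adjusted p = 0.791 for both. Mia3 passed only in limma-voom with quality weights (adjusted p = 0.0286). Apobec1, which edits the Apob transcript, was at 0.44 ± 0.42 and Ces1d, a lipase of the endoplasmic reticulum, at 0.37 ± 0.40. In the comparisons of model with normal and of each arm with the model, edgeR called no gene of these 5 lists, as it called no gene at all.

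**Figure D4:**
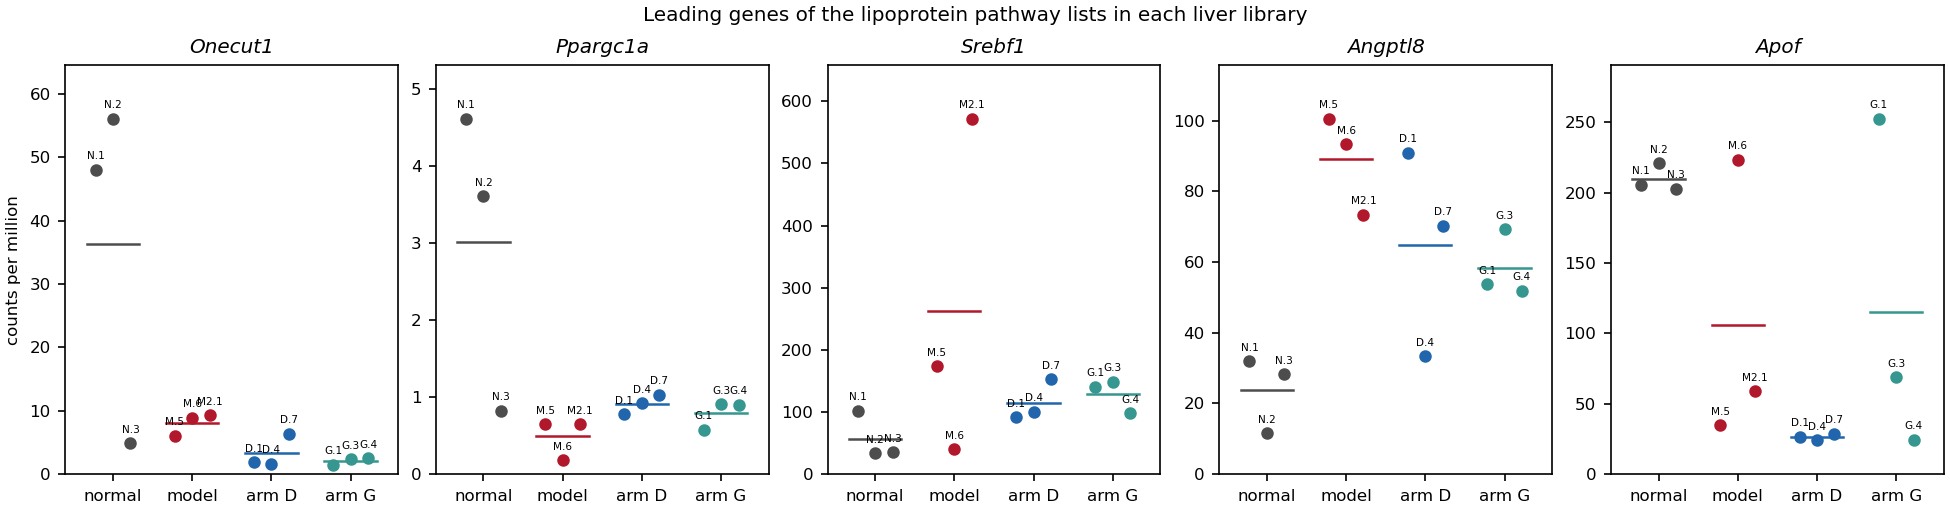
Each point is 1 library, with CPM on a linear axis from 0, and bars are group means of 3 libraries. Normal library N.3 stands with the high-fat libraries for Onecut1 and Ppargc1a, M2.1 stands above the other libraries for Srebf1, all 9 high-fat libraries are above normal for Angptl8, and Apof is near 200 CPM or well below it.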

How the data were processed

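Per the labels' protocols, liver RNA was taken up in Trizol and its libraries were made with NEBNext Ultra reagents. The 3 tables that the authors deposited hold 6 libraries each, and the values analysed are their unnormalized counts of reads, named so in the headers. How reads were aligned and counted, with which annotation, filters and strand setting, is not given in the sources used here. The submitters' processing notes name DESeq2 and mm9, a mouse build, so no gene coordinates were taken from the files. For each gene the authors' deposited tables also hold their own p-value, raw and adjusted, and log2 fold change, quoted only where that table is named. Another 36 per-sample columns were not used.

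The tables were joined on gene name, and columns were matched to groups by letter, since their numbers do not follow the labels. The labels do not explain why the name M2.1 differs in form from the other model libraries. The labels do not tie libraries to animals, so p-values measure the spread between libraries. No 2 libraries of the same group agreed within sampling noise, and libraries of different groups were not compared in this way.

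The main test ran on the counts in edgeR 4.0.16 (R 4.3.3): filterByExpr, TMM scaling, 1 quasi-likelihood fit of all 12 libraries with a mean per group, and Benjamini-Hochberg adjustment over 12355 genes. The script was tested on simulated data. The common biological coefficient of variation was 0.409. Relations across libraries used log2 CPM (prior count 2) and two-sided permutation tests with 100000 resamples, permuted over all 12 libraries regardless of group. Alternatives used DESeq2 1.42.0, limma 3.58.1 (voom), other scalings and filters, and fits without single libraries. The 10 genes and the lists were chosen with earlier results of these data known. Named were all 10 genes, every called list gene, per list the 2 higher and 2 lower genes of smallest p in the high-fat comparison, and the 5 genes most like the mean of the 10. The rule also named 1 gene per direction and list in each other comparison, and these were not printed. A few genes of the lists are left out of the text. Groups were called not overlapping where all libraries of 1 lay above all of the other. RefSeq promoter windows (build GRCr8) were matched by symbol.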

Additional observations from a re-analysis of the deposited data

How the results depend on the processing

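Of 991 recomputed log2 differences of the 10 genes, 914 kept direction and side of the threshold, 75 changed sign and 2, both of Mttp, came to pass it. The cause of these changes was not tested. For comparisons with the model and of arm D with normal, no paired analysis was possible because the groups share fewer than 2 of the numbers in the column names. Arm G shares 2 with normal and 2 with arm D, and no label says that these numbers pair libraries. Deviations from the group means of same-numbered libraries had r from −0.40 to 0.35. A replicate block on these numbers, chosen after seeing the data, was fitted in edgeR over 7 libraries. It called 5 genes in arm G against normal and 0 between the arms. Mttp was at −0.892 (adjusted p = 0.643, edgeR) and −0.002, and passed in neither. That fit had only 2 residual degrees of freedom, beside 8 in the main fit. For the relations to the mitochondrial share, scaling to counts outside the mitochondrial genome left each r on its side of the threshold, and rho of Apob came to pass it (permutation test, adjusted p = 0.0398). TMM factors were applied on both scales, and r moved little, from −0.919 to −0.920 for Apoa4 and from 0.529 to 0.524 for Apoc1. The second scale is therefore hardly a separate check.

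Counts of called genes, 0 by edgeR except 11 in the high-fat comparison, moved with the test. DESeq2 called 41 genes in model against normal, 14 and 5 in arms D and G against model, 84 and 51 in arms D and G against normal, 5 between the arms and 87 in the high-fat comparison. Voom with quality weights called 6, 941, 47 and 875 in model, arm D, arm G and all high-fat groups against normal, and plain voom 2 in the last. Without a filter, 3 were called in model against normal, 1 between the arms and 21 in the high-fat comparison. Without scaling factors the high-fat comparison called 2, the fit of arm D and normal alone called 2, and without M.6 and G.3 model against normal called 1. Leaving out 1 library gave 0 to 6 in model against normal (6 without G.3), 0 to 1 in arm G against normal and between the arms, and 0 to 19 in the high-fat comparison (0 without D.1, N.1 or N.2, 19 without M2.1).

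In model against normal, the mitochondrial share as a covariate turned Apoa1 to 0.053, Apoa4 to 0.042, Apob to 0.170 and Apoe to 0.300. Leaving out M.6 and G.3 turned Apoa4 to 0.020, Apob to 0.036 and Apoe to 0.186, and Apoe was 0.010 with upper-quartile scaling and 0.172 with quality weights. In arm D against model, quality weights turned Apoa2 to −0.284, Apoa4 to 0.957, Apoc3 to −0.268 and Apoe to −0.014, plain voom Apoa4 to 0.616, no scaling Apoc2 to 0.009, the covariate Apoc3 to −0.011 and Apoe to −0.100, and leaving out M.6 and G.3 Apoc3 to −0.145 and Apoe to −0.056. In arm G against model, plain voom turned Apoa1 to −0.350, Apoa4 to 0.195 and Apoe to −0.084, the covariate Apoa1 to −0.175, Apoa2 to 0.027 and Apoe to −0.071, leaving out M.6 and G.3 Apoa2 to 0.297 and Apoc2 to 0.171, and quality weights Apoa4 to 1.26, Apob to 0.052 and Mttp to 0.104. Between the arms Mttp was 0.128 with quality weights and 0.155 without M.6 and G.3. In the high-fat comparison Apoe was −0.022 with plain voom, the covariate turned Apoa1 to 0.022, Apobec1 to −0.008 and Vldlr to −0.275, and Vldlr was −0.214 without M.6 and G.3.

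Leaving out 1 library at a time changed a sign for these. In model against normal, Apoa2 ranged from −0.107 to 0.681, Apoa4 from −1.78 to 0.020, Apob from −0.472 to 0.035 and Apoe from −0.285 to 0.186. In arm D against model, Apoa2 ranged from −0.115 to 0.739, Apoa4 from −0.664 to 1.14, Apob from −0.388 to 0.119, Mttp from −0.253 to 0.090, Apoc2 from −0.495 to 0.120, Apoc3 from −0.230 to 0.503 and Apoe from −0.082 to 0.389. In arm G against model, Apoa1 ranged from −0.381 to 0.756, Apoa2 from −0.394 to 0.395, Apoa4 from −0.639 to 1.16, Apoa5 from −0.176 to 0.396, Apob from −0.583 to 0.003, Mttp from −0.476 to 0.068, Apoc2 from −0.316 to 0.170, Apoc3 from −0.560 to 0.244 and Apoe from −0.171 to 0.488. Mttp between the arms ranged from −0.360 to 0.156. In the high-fat comparison Apoc2 ranged from −0.012 to 0.304, Apoe from −0.043 to 0.210 and Vldlr from −0.168 to 0.466. In model and in all high-fat groups against normal, Apoa1, Apoa5, Apoc1, Apoc3 and Mttp kept their signs in every leave-one-out fit.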
